A study of Mus musculus with 4 samples.

Results

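The genes of mitochondrial and peroxisomal fatty acid oxidation were examined in a map of PPARγ binding in alveolar macrophages (AMs). The 41 members were taken by name from a gene list, out of 20923 protein-coding genes with a curated RefSeq transcript. By the site of the enzyme, 20 members were mitochondrial, 15 were peroxisomal, 4 (Crat, Acad11, Ech1 and Eci2) had both compartments and 2 (Acot1 and Acot7) were cytosolic. Binding was measured by HT-ChIPmentation, a chromatin immunoprecipitation in which the sequencing adapters are inserted by transposase. The cells were WT AMs of the lung, sorted after bronchoalveolar lavage from C57BL/6J mice aged 9 wk, with no treatment and no contrasting genotype. There were 2 libraries made with a Diagenode PPARγ antibody, called library 1 and library 2, and 2 input libraries without antibody that served as the authors' controls and are not analysed here. Nothing in the sources says that the libraries came from separate animals, so the spread between them may be technical.

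In β-oxidation, long-chain fatty acids are activated to acyl-CoA, carried across the inner mitochondrial membrane as acylcarnitines and shortened by rounds of dehydrogenation, hydration, a further dehydrogenation and thiolysis. Peroxisomes run a parallel pathway for very long and branched chains, in which the first step is an oxidase that passes electrons to oxygen rather than to the respiratory chain. PPARγ binds DNA as a heterodimer with RXR at direct repeats of AGGTCA separated by 1 base (DR1), and it is required in AMs for lipid handling and for the clearance of surfactant lipids.

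A consensus region was a stretch in which peaks of both libraries overlapped by at least 1 bp, and it was assigned to the gene with the nearest transcription start site (TSS). Of the 41 members, 27 (65.9%, 95% Wilson interval 50.5 to 78.4) were nearest to at least 1 consensus region, against 31.6% of all protein-coding genes. The 27 genes held 74 of the 20233 regions. A region centre lay in the promoter window, from 1 kb before a TSS to 100 bp after it, for 22 members (53.7%, interval 38.7 to 67.9), against 17.0% of all genes. By compartment, 11 of 20 mitochondrial members (55%, interval 34.2 to 74.2) and 10 of 15 peroxisomal members (66.7%, interval 41.7 to 84.8) had a region, so the intervals overlapped widely. All 6 members of both compartments or the cytosol had one, which with 6 genes allows a share down to 61.0%. In the promoter window the counts were 11 of 20 mitochondrial, 6 of 15 peroxisomal and 5 of 6 other members. The intervals cover counting error only. The members were chosen with earlier results of these data known, so these shares are no test of enrichment. No test was possible between conditions, since the series has a single condition.

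**Figure D1:**
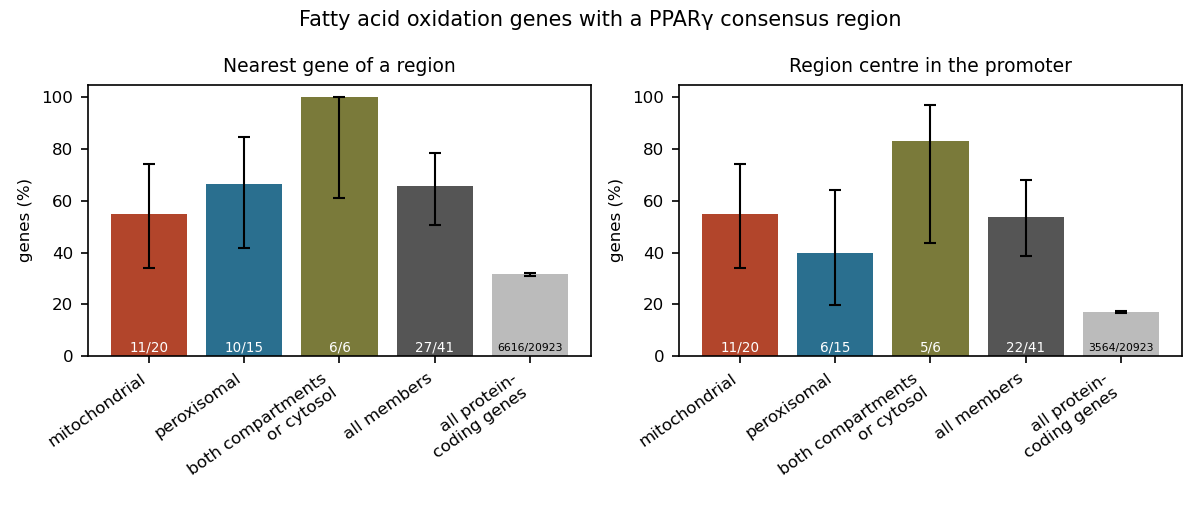
Percent of genes that were nearest to a consensus region (left) or had a region centre in their promoter window (right), for mitochondrial, peroxisomal and other members, all 41 members and all 20923 genes. Bars show the share, lines the 95% Wilson interval, and the numbers in the bars the counts: 27 of 41 members had a region, against 31.6% of all genes.

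Sequences of the best-ranked regions were read from the RefSeq mm10 genome (plus strand, 5′ to 3′, within 50 bp of the summit in library 1, with exons trimmed off). Regions were ranked by the lower of their fold-enrichment percentiles in both libraries. The mitochondrial set comes from 3 promoter regions and from a region in an intron of Hadha. The printed stretch of Cpt1a lies just upstream of the 1 kb promoter window, although the centre of its region lies inside. The summits of the libraries in this Cpt1a region were 914 bp apart. Capitals mark GGGCGG, the GC box of SP and KLF factors, on either strand.
Etfb chr7:43443931-43444031: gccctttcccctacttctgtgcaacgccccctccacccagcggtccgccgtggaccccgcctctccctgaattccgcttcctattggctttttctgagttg
Cpt1a chr19:3322181-3322281: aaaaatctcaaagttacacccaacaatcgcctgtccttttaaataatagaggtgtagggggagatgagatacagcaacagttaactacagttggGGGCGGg
Hadha chr5:30152004-30152104: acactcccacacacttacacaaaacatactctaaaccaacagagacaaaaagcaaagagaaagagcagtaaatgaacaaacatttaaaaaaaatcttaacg
Hadhb chr5:30155155-30155252: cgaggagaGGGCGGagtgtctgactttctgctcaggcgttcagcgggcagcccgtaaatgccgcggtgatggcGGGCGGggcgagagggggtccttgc

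The peroxisomal set holds 1 promoter, that of Acot8, and 3 sites further from the TSS. The best region of Hsd17b4 ranked above those of Acot8 and Pex5, but its sequence is not printed. Capitals mark TGANTCA (AP-1), TTGCNNAA (C/EBP), TGTGGT or its complement ACCACA (RUNX) and GGGCGG. No DR1 with up to 1 mismatch lay in these windows.
Acaa1b chr9:119164959-119165059: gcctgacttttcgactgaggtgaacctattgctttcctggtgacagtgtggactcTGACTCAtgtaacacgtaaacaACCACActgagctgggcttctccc
Abcd2 chr15:91172227-91172327: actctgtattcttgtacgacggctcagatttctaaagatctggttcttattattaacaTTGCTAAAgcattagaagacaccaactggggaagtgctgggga
Acot8 chr2:164804983-164805083: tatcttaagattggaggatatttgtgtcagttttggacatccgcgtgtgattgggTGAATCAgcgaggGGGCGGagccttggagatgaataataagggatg
Pex5 chr6:124375552-124375652: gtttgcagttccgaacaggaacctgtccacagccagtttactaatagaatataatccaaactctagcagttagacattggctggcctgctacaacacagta

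The promoter of Ech1 is shown because it had the best rank of any member promoter, and was chosen after its values were seen. None of the searched motifs lay in its printed stretch, which therefore has no capitals. TTGCNNAA did lie outside this stretch, within 100 bp of the summit of each library.
Ech1 chr7:28825059-28825159: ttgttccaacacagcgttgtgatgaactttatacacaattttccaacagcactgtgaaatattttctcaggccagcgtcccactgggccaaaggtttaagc

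Within 100 bp of the library 2 summit, 2 of 74 member regions (2.70%) held a DR1 with at most 1 mismatch. The share of all regions was 0.949%. At library 1 summits, 0 of 74 held one, against 0.786% of all regions. Capitals mark the DR1, which lies on the minus strand at Etfdh and on the plus strand at Abcd2, and which in both overlaps AAGGTCA, the site of oestrogen-related receptors.
Etfdh chr3:79628251-79628351: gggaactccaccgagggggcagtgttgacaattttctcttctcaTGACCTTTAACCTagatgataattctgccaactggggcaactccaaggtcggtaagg
Abcd2 chr15:91173151-91173251: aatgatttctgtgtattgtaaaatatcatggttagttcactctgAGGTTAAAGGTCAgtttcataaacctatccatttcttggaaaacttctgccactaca

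The carnitine shuttle was marked at its mitochondrial entry. Cpt1a encodes the outer-membrane carnitine palmitoyltransferase that controls the entry of long chains, and had 6 regions, the most of any mitochondrial member. Its promoter region (chr19:3322045-3323793) was centred 0.382 kb upstream of the TSS, with a fold enrichment over input of 8.59 in library 1 and 7.31 in library 2. The others lay in its introns, at 1.001, 1.61, 2.35, 3.16 and 16.1 kb downstream, and the region at 2.35 kb had folds of 10.7 and 4.79. Cpt2, which turns acylcarnitine back into acyl-CoA inside the mitochondrion, had a promoter region with folds of 8.29 and 4.98 and an intronic one, 1.46 kb downstream, with folds of 5.92 and 5.63. Crat, the acetyltransferase of short chains, had 1 region with folds of 4.80 and 5.91, whose centre fell in the promoter window of the neighbouring Ptpa. Cpt1b, the muscle form of Cpt1a, and Crot, the peroxisomal octanoyltransferase, had no region.

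Nearest-TSS assignment left out the strongest binding inside Cpt1a. A further 3 consensus regions had their centre within the Cpt1a gene but nearer to the TSS of Tesmin, which lies beyond the end of Cpt1a. The region 55.6 kb into the gene (chr19:3378272-3379567) had folds of 16.9 and 13.9, higher in both libraries than any region assigned to a mitochondrial member. The regions 54.1 and 36.9 kb into the gene had folds of 13.9 and 7.58, and of 5.33 and 5.07. Which promoter these sites act on was not measured. Scp2 was the other such member, with 4 regions inside the gene assigned to Podn, whose folds were 2.78 to 11.0 in library 1 and 5.63 to 5.91 in library 2. No member without a region gained one in this way.

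**Figure D2:**
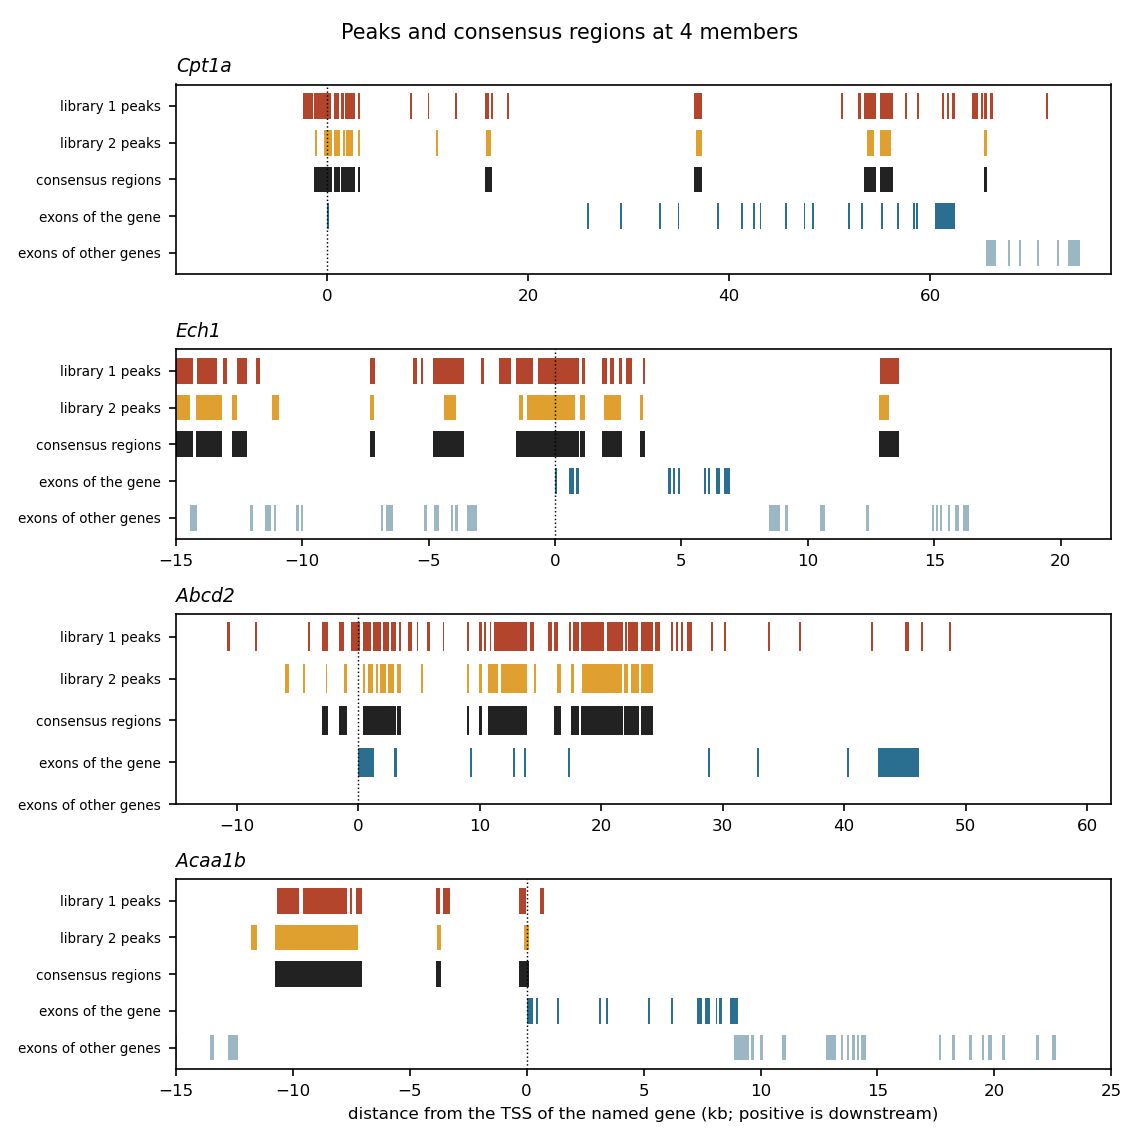
Peaks of library 1 and library 2, consensus regions and exons at Cpt1a, Ech1, Abcd2 and Acaa1b, against the distance in kb from the TSS of the named gene (positive is downstream). Consensus regions include those assigned to neighbouring genes, such as the 3 regions between 36.9 and 55.6 kb in Cpt1a. Regions of Cpt1a and Ech1 cluster at the TSS, those of Abcd2 spread over the first introns, and the widest region of Acaa1b lies upstream, where no exon is annotated.

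The first dehydrogenation showed promoter regions of modest fold. Among the mitochondrial acyl-CoA dehydrogenases, Acadl (long chain) had a promoter region with folds of 5.92 and 5.35 and an intronic region with 5.92 and 6.75. Acadm (medium chain) had 1 promoter region with folds of 4.44 and 4.52. Acadvl (very long chain), Acads (short chain) and Acad10 had none. Acad11, a dehydrogenase of long chains, had 1 region with folds of 5.63 and 5.07 in its promoter. Acox3, the peroxisomal oxidase of branched chains, had a region of 2322 bp over its first intron, centred 0.811 kb downstream, with folds of 7.87 and 5.98. A further intronic region, 26.8 kb downstream, had folds of 10.7 and 3.91. In this group of 7 genes, 4 had a region, against 31.6% of all genes.

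The hydratases and hydroxyacyl-CoA dehydrogenases had a region in 5 of 6 genes, against 31.6% of all genes. Hadha and Hadhb encode the subunits of the mitochondrial trifunctional protein and are transcribed away from each other from a common promoter. The region over both start sites (chr5:30154882-30155442) had folds of 7.41 and 6.75 and was counted for Hadhb. Hadha had 3 more within its first 2.67 kb, with folds of 7.11 to 7.70 in library 1 and 4.79 to 8.33 in library 2, and Hadhb had another with 5.92 and 5.07. Echs1, the short-chain enoyl-CoA hydratase, had a promoter region with folds of 8.29 and 5.35 and a region 0.546 kb downstream with 12.4 and 3.87. The fold of 12.4 was the highest in library 1 for an assigned mitochondrial region, while in library 2 all but 1 of the mitochondrial regions had a higher fold than its 3.87. Hadh, the short-chain dehydrogenase, had no region.

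Among the peroxisomal enzymes of the same steps, the best regions lay in introns beyond 3 kb. Ehhadh, the bifunctional enzyme of straight chains, had no region within 3 kb of its TSS. Its best region was intronic, 8.54 kb downstream (chr16:21779047-21779545), with folds of 7.998 and 6.75, and its 3 others lay 5.17 to 6.31 kb upstream, 2 of them in the promoter window of the non-coding gene 1300002E11Rik. Hsd17b4, the multifunctional enzyme for branched and very long chains, had 6 regions. The best lay in an intron, 5.78 kb downstream, with folds of 9.77 and 11.5, whereas its promoter region had folds of 4.15 and 4.79. Of its 6 regions, 3 lay within 3 kb of the TSS. The gene is on chromosome 18, from which no sequence is shown.

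Of the 5 auxiliary enzymes, which handle unsaturated chains, 2 (40%) had a region, against 31.6% of all genes. Ech1, a dienoyl-CoA isomerase of mitochondria and peroxisomes, had 5 regions and the highest promoter signal among the members. Its promoter region (chr7:28823782-28826269) was 2488 bp wide, was centred 0.313 kb upstream and had folds of 14.5 and 12.9, with the summits of the libraries 11 bp apart. Of the others, 3 lay in Ech1 introns, up to 3.45 kb downstream, and 1 in an intron of the upstream gene Hnrnpl. Eci2, an enoyl-CoA isomerase, had a promoter region with folds of 6.22 and 5.63, an intronic region with 7.70 and 5.35, and a region 265 kb upstream with 4.80 and 4.52. Eci1, Decr1 and Decr2, an isomerase and the mitochondrial and peroxisomal dienoyl-CoA reductases, had no region.

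Among the thiolases, which cleave off the final acetyl-CoA of each round, the paralogs Acaa1a and Acaa1b had their strongest regions at different places relative to the gene. Acaa1b, a peroxisomal thiolase, held the best-ranked region of all members (rank 473 of 20233). It was 3725 bp wide, lay 8.92 kb upstream (chr9:119164150-119167874) in intergenic sequence and had folds of 15.1 and 12.3, with summits 19 bp apart. The promoter of Acaa1b was weaker, at 4.44 and 4.40. Its paralog Acaa1a was nearest to no region, but its TSS lay inside one (chr9:119339313-119341493, folds of 13.0 and 7.85) whose centre was in the promoter it shares with Myd88, for which the region was counted. Of the 50-base words in 1 kb on either side of the TSS, 3.23% were common to both genes, and 12.2% over the gene body of Acaa1a, so reads there could be lost or misplaced. The mitochondrial thiolase Acaa2 had a promoter region with folds of 4.44 and 4.79, and Scp2, whose longer product is the thiolase of branched chains, had one with 5.45 and 4.79. Acat1, the acetoacetyl-CoA thiolase, had no region, and the nearest lay 362 kb away.

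Electrons from the dehydrogenases pass to ubiquinone through the electron transfer flavoprotein and its oxidoreductase. Etfb, the β subunit, had the best-ranked assigned region of all mitochondrial members (chr7:43443243-43444239), 0.331 kb upstream, with folds of 10.4 and 9.53. Etfdh, the oxidoreductase, had a promoter region with folds of 5.92 and 6.75, and a region 0.512 kb downstream with 3.85 and 6.75 that holds the DR1 printed above. Etfa, the α subunit, had no region. A peak of library 1 alone, with a fold of 7.70, lay on its TSS.

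The peroxisomal ABC transporters bring very long and branched acyl-CoA into the organelle. Abcd2 had 12 regions, the most of any member, spread from 2.69 kb upstream to 23.8 kb downstream. The best ranked (chr15:91170225-91173673, 20.1 kb downstream, 3449 bp) had folds of 19.0 and 10.4, and another (chr15:91178093-91181279, 12.3 kb downstream) had 8.997 and 12.6. The best-ranked region holds the DR1 of Abcd2, within 100 bp of the summit of library 2 but not of library 1. The summits of the libraries were 1005 bp apart in this region and 1135 bp apart in the one at 12.3 kb. The folds of the libraries in each were therefore not read at the same place. Over the 12 regions, folds ran from 2.64 to 19.0 in library 1 and from 3.01 to 12.6 in library 2, so most of these regions were far weaker than the best. No consensus region covered the Abcd2 TSS, on which library 1 alone had a peak with a fold of 9.77. Abcd3 had a region 0.448 kb downstream, with folds of 3.55 and 7.87, and a region 59.5 kb upstream, ranked higher by the lower of its percentiles, with 3.81 and 3.96.

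The acyl-CoA thioesterases, which release free fatty acids from CoA, had a region in 4 of 4 listed genes, against 31.6% of all genes. All 4 had 1 in the promoter window, against 17.0% of all genes. Of 8 thioesterases outside the members, 3 had a region and 1 had a promoter region. Acot8, the peroxisomal form, had the best-ranked promoter region among those assigned to peroxisomal members (chr2:164804554-164805432), with folds of 9.18 and 7.87, shared with Zswim3. The cytosolic Acot7 had folds of 8.89 and 7.24 in a region 1.22 kb upstream, and Acot1 had 5 regions, of which the best, 11.4 kb downstream, had 7.41 and 8.70. The mitochondrial Acot2 had 1 promoter region with unequal folds of 3.48 and 8.15. Acot1 and Acot2 are adjacent paralogs, and 3.28% of the 50-base words around their TSSs were common to both.

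Of the 4 listed peroxins, which assemble the organelle and import its enzymes, 2 had a region, Pex5 and Pex14, against 31.6% of all genes. Pex5 is the receptor of the import signal, and its only region (chr6:124375087-124376071) was intergenic, 39.3 kb downstream of the TSS, with folds of 8.59 and 8.42. Pex14, the docking protein, had an intronic region 21.2 kb downstream with 5.33 and 8.42 and a promoter region with 5.92 and 4.24. Pex11a, which acts in peroxisome division, and Pex19, the chaperone of membrane proteins, had none.

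The counts of regions near and far from the TSS were uneven between the compartments, and no test of the difference was run. Of the 23 mitochondrial regions, 21 (91.3%) were centred within 3 kb of a TSS, against 12 of 34 peroxisomal regions (35.3%) and 36.5% of all regions. Since regions of 1 gene are not independent, and 12 of the peroxisomal ones belong to Abcd2 and 6 of the mitochondrial ones to Cpt1a, the same was counted by gene: 1 of 11 marked mitochondrial members, Cpt1a, had a region beyond 3 kb, against 8 of 10 marked peroxisomal members (80%) and 3870 of 6616 marked genes in all (58.5%). Of all 41 members, 25 had a region within 3 kb, against 22.8% of all genes, and 12 had one beyond, against 18.5%. The median distance from the TSS was 0.546 kb for mitochondrial and 6.05 kb for peroxisomal regions, against 8.51 kb for all. Without Abcd2, 9 of 22 peroxisomal regions (40.9%) lay within 3 kb.

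The stretch of genome assigned to each gene moved with this difference. It had a median of 24.98 kb for mitochondrial members and 66.7 kb for peroxisomal members, against 48.8 kb for all genes, and its part in the difference was not tested. The 3 sites inside Cpt1a and the 4 inside Scp2 that were counted for neighbours are not in these numbers. By annotation at the centre, the mitochondrial regions were 12 promoter and 11 intronic, and the peroxisomal ones 7 promoter, 19 intronic and 8 intergenic. Of all regions, 18.6% were in a promoter by this annotation. It counts the promoter of any gene, such as that of 1300002E11Rik for regions of Ehhadh and that of 4930579G24Rik for a region of Etfdh.

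**Figure D3:**
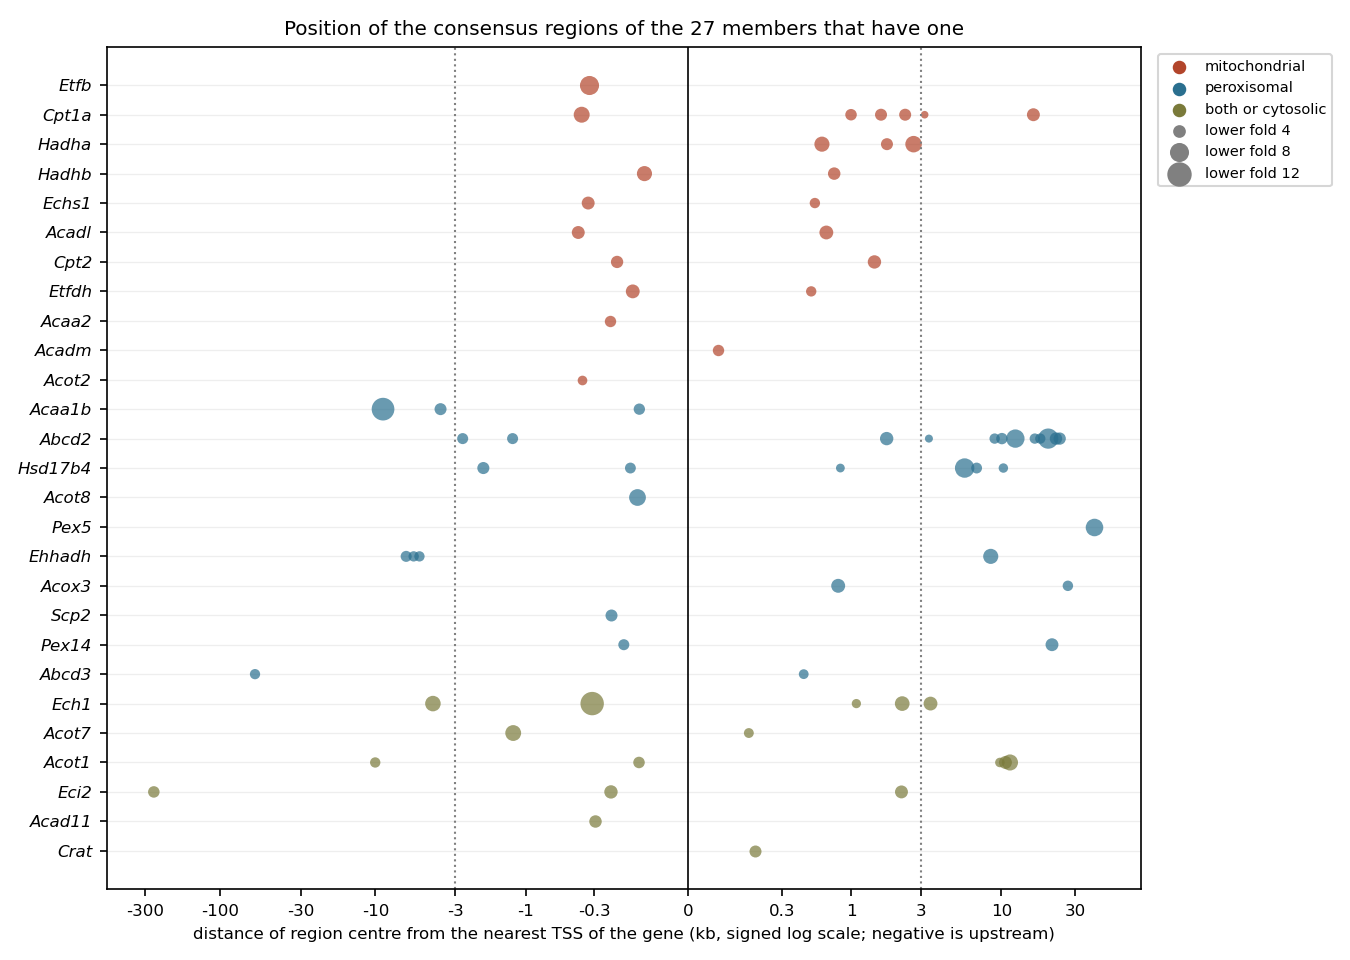
Distance of each consensus region from the nearest TSS of its gene (kb, signed log scale, negative is upstream) for the 27 members with a region, coloured by compartment and sized by the lower fold enrichment of both libraries. Dotted lines mark 3 kb on either side. The mitochondrial points lie within them except for 2 of Cpt1a, while 22 of 34 peroxisomal points lie outside.

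The highest peroxisomal folds were distal as well, but the medians were not higher there. Beyond 3 kb the highest peroxisomal folds were 19.0 in library 1 and 12.6 in library 2, both of Abcd2. Within 3 kb they were 9.18 and 7.87. Among mitochondrial regions within 3 kb they were 12.4 and 9.53. Among all regions they were 45.3 and 29.4 beyond 3 kb, and 36.7 and 25.7 within it. Peroxisomal medians were 4.92 and 5.07 beyond 3 kb, and 5.14 and 5.21 within it. Over all distances the library 1 median was 6.52 for mitochondrial and 4.94 for peroxisomal regions, against 6.81 for all regions. In library 2 the medians were close, at 5.35 and 5.07, against 5.35 for all regions. Both compartments lay at or below all regions in each library. By the best region of each marked gene the order was reversed. These medians were 5.92 and 6.75 for mitochondrial and 8.29 and 8.15 for peroxisomal members in libraries 1 and 2, against 8.59 and 6.19 for all marked genes. Folds of more than 10 in both libraries were found in 3 member regions, those of Acaa1b, Abcd2 and Ech1 (4.05% of 74), against 4.83% of all regions. Summits were at most 100 bp apart in 41 of the 74 regions (55.4%), against 52.7% of all. Fold values were coarse, since 44 of the 74 regions shared their value with another member region in library 1 and 51 did in library 2, so small differences between members carry little weight.

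**Figure D4:**
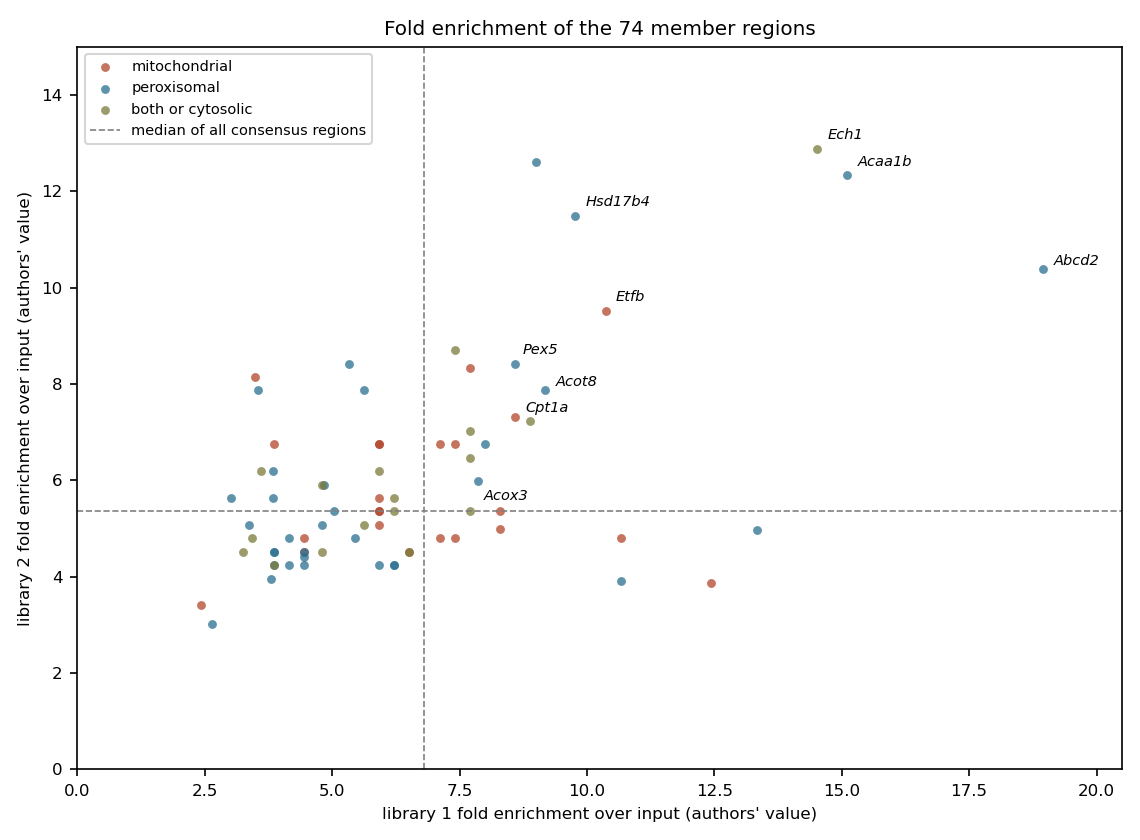
Fold enrichment over input in library 1 (x axis) and library 2 (y axis) for the 74 member regions, 1 point per region, coloured by compartment, with the best regions of selected members named and the medians of all regions (6.81 and 5.35) as dashed lines. Only Acaa1b, Abcd2 and Ech1 exceed 10 in both libraries. Points on common rows and columns reflect repeated fold values.

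Most of the 14 members without a region had peaks in library 1. Of these 14, 10 had peaks of library 1 alone in their stretch of genome and 0 had peaks of library 2. In 6 the peak of library 1 lay on the TSS: Etfa (fold 7.70), Pex19 (5.92), Acadvl (5.33), Acad10 (4.44), Eci1 (4.15) and Pex11a (3.55). Cpt1b, Hadh, Acat1 and Acaa1a had library 1 peaks elsewhere, with highest folds of 4.74, 3.36, 4.74 and 3.55. These are peaks assigned by the nearest TSS. The TSS of Acaa1a itself lay inside the consensus region counted for Myd88, with folds of 13.0 and 7.85. Acads, Crot, Decr1 and Decr2 had no peak in either library. Counting library 1 alone, 37 members had a peak, against 60.6% of all genes, and counting library 2 alone, 25 members did, against 34.9%. Library 1 marked 18 of 20 mitochondrial and 13 of 15 peroxisomal members, so the mitochondrial count moved most between the lists.

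Motif letters were counted within 100 bp of the summit of library 1, on both strands. The single site AGGTCA was found in 13 of 74 member regions (17.6%), against 14.9% of all regions, and AAGGTCA, which contains it, in 5 (6.76%), against 4.82%. A DR1 with up to 2 mismatches was found in 4 (5.41%), against 4.57%, with up to 1 mismatch in 0, against 0.786%, and without mismatch in 0, against 0.0643%. These shares were near the background. GGGCGG was found in 7 of 23 mitochondrial and 3 of 34 peroxisomal regions, against 10.6% of all. At the summits of library 2 it was found in 4 of 23 mitochondrial and 2 of 34 peroxisomal regions, against 10.3% of all. For library 1, all 11 member regions with it lay within 3 kb of a TSS, where 22.2% of all regions held it. AGGAAGT, a site of PU.1, the lineage factor of macrophages, was found in 3 member regions (4.05%), against 16.7%. It was in 0 of the 31 member regions beyond 3 kb, against 19.4% of all regions beyond 3 kb. These 31 regions belong to 12 genes, with 9 from Abcd2, so they are not independent. At library 2 summits, AGGAAGT was in 4 of 74 member regions, against 14.9% of all. TTGCNNAA was in 10, TGANTCA in 8, TGTGGT in 14 and the E-box CACGTG in 3 member regions, against 15.1%, 9.98%, 19.8% and 4.33% of all. A match is a description of the letters and not of a bound site.

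Of the promoter windows, 6 of the 23 member regions there lay in the window of another gene too. They included those of Hadha with Hadhb, Acaa1a with Myd88, Acot8 with Zswim3, Etfdh with 4930579G24Rik and Acaa2 with Scarna17. At these sites the binding cannot be told apart between the genes. RNA was not measured in these samples, so no level or change of expression goes with any of the regions.

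Markers of cell types were looked up in the same regions. All 12 AM markers examined, among them Siglecf, Marco, Chil3 and Pparg, had a region, against 31.6% of all genes. Of 16 markers of other lung cells, 6 (37.5%) had one: Scgb1a1, Epcam, Pecam1, S100a8, Cx3cr1 and Ccr2. The AM markers include Pparg and were chosen with earlier results of these data known, so these counts cannot check the cell label. The peak lists held 83787 peaks in library 1 and 28535 in library 2, with median widths of 182 and 285 bp. They hold no read counts, so they do not give the depth behind each value.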

How the data were processed

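AMs were sorted from lavage of WT mice. The submitters' processing notes name MACS3, SAMtools, Bowtie2, cutadapt, CASAVA and bcl2fastq (2.20.0.422), with mm10 as the build. Reads with mapping quality up to 30 were removed, and peaks were called per library against input at a q of 0.05, without pooling. The deposited lists give peak positions, the summit's fold enrichment over input (a linear ratio), the −log10 of the p-value and q-value, a score derived from the −log10 q-value, and summit positions. They hold no counts, so they do not give the depth. The paper refers to quality data for its sequencing, which were not used here. A library sequenced less deeply can miss weak peaks, which lowers the number of consensus regions.

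Consensus regions, nearest curated RefSeq TSSs and motif matches were computed in Python 3.11.15 with pandas 2.3.3, numpy 2.4.6 and pysam 0.24.0, and figures with matplotlib 3.10.9. Assignment was tested on simulated data. The best region of a gene had the highest lower-of-both-libraries percentile of fold. All 41 members are named, and the 27 with a region each have the folds of their best region given. Sequences are the best regions of up to 4 mitochondrial and 4 peroxisomal members outside chromosome 18 and those with a DR1 of up to 1 mismatch. Compartments and roles are textbook assignments. The members and lists were chosen with earlier results of these data known. Alternatives were a q of 0.001, a fold of at least 5, reciprocal overlap of 50%, summits within 100 bp, each library alone, predicted transcripts, other assignments, windows and compartments. Those for shares of regions within 3 kb were added after seeing the data, as was the count of regions inside member genes assigned elsewhere. Some genes that the rule selects are left out of the text. The 2 input libraries were not analysed here.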

Additional observations from a re-analysis of the deposited data

How the results depend on the processing

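The number of members with a promoter region depended on how strictly the libraries had to match. It was 22, but 12 when both folds had to reach 5 (29.3%, against 10.7% of all genes), 12 when summits had to lie within 100 bp (29.3%, against 10.4%), and 11 when peaks had to overlap reciprocally by 50% (26.8%, against 9.64%). Leaving out a library gave 25 to 37 members with a region, 11 to 18 mitochondrial and 9 to 13 peroxisomal members, and 22 to 31 members with a promoter region. The share of mitochondrial regions within 3 kb was 69.4% to 82.8% with a library left out, and that of peroxisomal regions 33.1% to 33.3%. Without library 2, 18 mitochondrial members had a peak and 69.4% of their peaks lay within 3 kb. With a fold of at least 5, Abcd3, Acaa2, Acadm, Acot2, Crat and Scp2 lost their region. In the other 53 of 58 alternatives, counts stayed within 1.5 times and shares of regions within the 95% Wilson interval of the reported value. The cause of the moves was not tested. No paired analysis was possible because the input libraries were not analysed here and no result came from a test between groups. With 2 libraries and no counts, a weak region in 1 library cannot be told apart from a missed one.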

Other observations

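Related genes outside the 41 members, from lists chosen with earlier results known, were marked to differing degrees. Of 18 other oxidation enzymes, 9 (50%) had a consensus region, against 31.6% of all genes. Pecr, a peroxisomal trans-enoyl-CoA reductase, had a region with folds of 21.1 and 12.9 in libraries 1 and 2, 29.0 kb downstream of its TSS, ranked 148 of 20233. Slc25a20, the carnitine-acylcarnitine carrier between Cpt1a and Cpt2, had a promoter region with 6.52 and 5.63. Acox2 and Amacr, of the branched-chain pathway, and Cpt1c had no peak in either library.

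Of 15 other peroxins and peroxisomal membrane genes, 10 (66.7%) had a region, against 31.6% of all genes. Among them were Acbd5 (folds of 11.3 and 9.26), Pex16 (9.77 and 7.20) and Pex2 (10.2 and 6.44, but 284 kb upstream). Of 8 other thioesterases, 3 (37.5%) had one, namely Acot12, Acot4 and Acot13. Of 7 regulators, 3 (42.9%) had one. Esrra, an oestrogen-related receptor, had a promoter region with folds of 10.4 and 7.31, Ppard had a region with 11.6 and 5.68, and Ppargc1b had 4 regions. Ppara, Ppargc1a, Acaca and Acacb had none.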
